A study of Mus musculus with 2 samples.

Results

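The nidogens, laminins and basement membrane proteoglycans were described in mouse embryonic fibroblasts (MEFs), connective tissue cells grown from embryos. The 10 genes were the nidogens Nid1 and Nid2, the laminin chains Lama2, Lama4, Lama5, Lamb1, Lamb2 and Lamc1, perlecan (Hspg2) and agrin (Agrn). A probe set, a group of short array probes that reads a transcript, was taken as a member where the platform annotation gave exactly one of these symbols. This gave 21 probe sets for the 10 genes, among 18193 genes with probe sets of their own on the array. The genes were chosen with the ratios between these cultures known, so what follows describes them and tests nothing.

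RNA was measured on Affymetrix mouse arrays from 1 culture homozygous for the disrupted Fut8 gene (Fut8-/-) and 1 culture with both normal copies (Fut8+/+). Fut8 encodes the alpha1,6-fucosyltransferase, which adds the core fucose to N-glycans. Both cultures were MEFs grown in Dulbecco's medium with fetal calf serum; the age of the embryos, the strain and the number of embryos are not stated in the labels. The design text speaks of 3 per genotype, and it is not known whether the RNA of each array came from 1 dish or several. With 1 array per genotype no value has a replicate check and no test of genotype could be made. Any 2 cultures may differ, so nothing below can be put down to the genotype.

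Basement membranes are thin sheets of matrix that lie under epithelia and around muscle, fat, nerve and vessel cells. Laminins are trimers of an alpha, a beta and a gamma chain that polymerise on cell surfaces, and nidogens link the laminin network to the separate network of collagen IV. Perlecan and agrin carry heparan sulfate chains and add growth factor binding and further links to the cell. Fibroblasts are known as a source of nidogen for basement membranes that epithelial cells help to build.

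Fut8 itself had a signal of 11.7 on the Fut8-/- array, against 190.9 on the Fut8+/+ array, where its best-read probe set was 14.1-fold lower. Its other 2 probe sets were at the floor on both arrays, and the labels do not say whether any of the 3 reads the disrupted part. Sex-linked transcripts differed too: the X-inactivation transcript Xist had a signal of 15.2 in Fut8-/- and 656 in Fut8+/+, and the Y-linked Eif2s3y 2845 and 7.06. Sex and genotype therefore cannot be told apart here. Of 13 fibroblast markers 9 were measured, among them vimentin (Vim), with signals of 11111 in Fut8-/- and 11471 in Fut8+/+, and the collagen gene Col1a2, with 9433 and 11280. Thy1, Lum, Fap and Dcn were under the measured limit on both arrays. Signals are given below as deposited. Every log2 ratio was centred by subtracting -0.22, the median over probe sets that exceeded the 40th percentile of each array. Scaled signals under 12.4 were raised to that floor. Where 1 array sits at the floor, the true fold can only be larger, and it is written as at least. A gene was counted as measured where its brighter array reached a scaled signal of 39.0.

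Of the 10 genes, 4 were at least 2-fold lower in the Fut8-/- culture. Nid1 was 41.2-fold lower, while Agrn, Lamb1 and Lama5 were 3.12-fold, 2.95-fold and 2.71-fold lower. Lamc1, Nid2, Lamb2 and Hspg2 lay within 2-fold at their brightest probe sets, and Lama2 and Lama4 were at the floor on both arrays. Of the 8 measured genes 4 thus passed 2-fold on the lower side and 0 on the higher side, where 8.46% of all 10165 measured genes passed it on the lower side and 6.12% on the higher. Their median log2 ratio was -1.22, against 0.00082 for all measured genes. It was -0.74, within 2-fold, when the median of all probe sets of a gene was taken, and -0.82 over all 10 genes when dim genes were kept. These shares stand side by side as a description, because the genes were chosen from this same contrast.

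**Figure D1:**
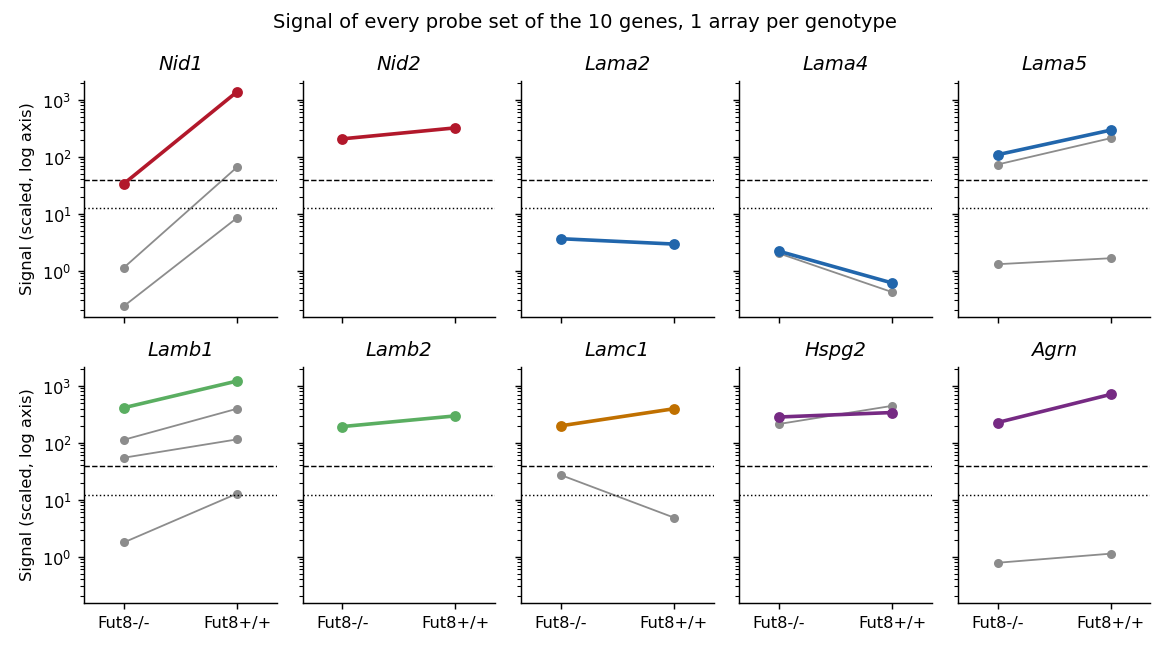
Signal of each probe set on the Fut8-/- array (left of each panel) and the Fut8+/+ array (right), on a log axis, with the Fut8-/- signals multiplied by 1.16 as in the ratios. The coloured line is the probe set taken for the gene, grey lines are its other probe sets, the dotted line is the floor of 12.4 and the dashed line the measured limit of 39.0. Nid1 has the steepest line of the 10 genes, and every Lama2 and Lama4 probe set lies under the floor on both arrays.

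The nidogens differed from each other. Nid1 encodes the main linker between laminin and collagen IV, and its brightest probe set (1416808_at) had a signal of 28.8 in Fut8-/- and 1385 in Fut8+/+. A further Nid1 probe set (1448469_at) read 0.969 in Fut8-/- and 65.7 in Fut8+/+, at least 5.32-fold lower with the Fut8-/- array at the floor. The remaining one (1441519_at) was under the floor on both arrays, at 0.204 and 8.45. The 2 Nid1 probe sets with a ratio were both more than 2-fold lower, although only the first was above the floor on each array. Nid2 encodes the related nidogen that can take the place of nidogen 1 in many basement membranes in mice. Its single probe set (1423516_a_at) read 177 in Fut8-/- and 322 in Fut8+/+, a 1.56-fold lower level (log2 ratio -0.64).

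Among the 9908 measured genes above the floor on both arrays, Nid1 had the 6th lowest log2 ratio (-5.37). Agrn stood at rank 257 and Nid2 at rank 1333, counted from the lowest. In the plane of the log2 signals of both arrays the measured genes nearest to Nid1 were Loxl1, Rcn3 and Serpinf1, at distances of 0.30, 0.45 and 0.49 log2 units, a likeness over 2 arrays. Loxl1, a lysyl oxidase-like enzyme of elastic fibres, read 23.5 in Fut8-/- and 1325 in Fut8+/+.

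**Figure D2:**
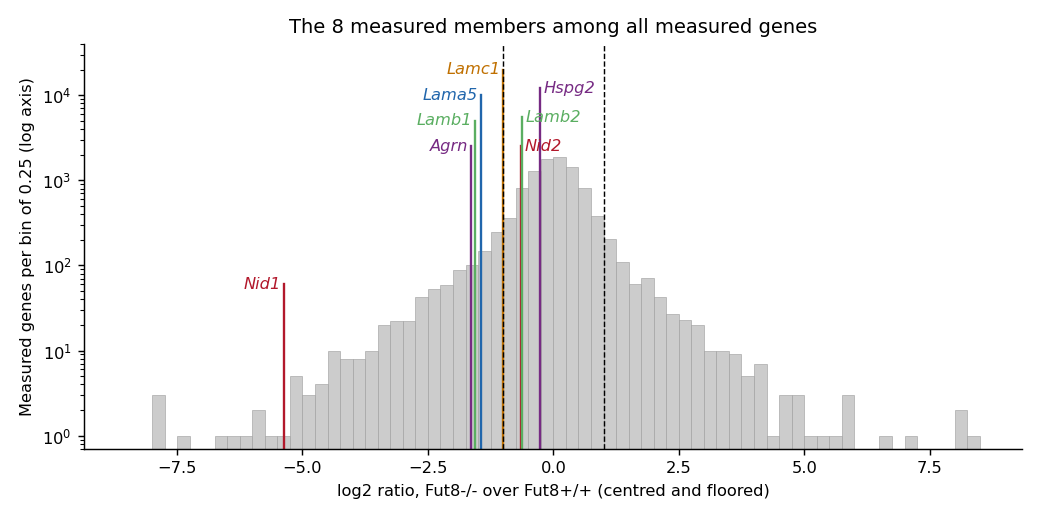
Number of measured genes in bins of 0.25 of the log2 ratio of Fut8-/- over Fut8+/+ (log vertical axis), with coloured lines at the 8 measured members and dashed lines at 2-fold. Nid1 lies at -5.37 in the sparse lower tail. Agrn, Lamb1 and Lama5 lie between -1.64 and -1.44, and the other 4 lie from Lamc1 at -0.996 to Hspg2 at -0.26.

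Of the laminin alpha chains, only Lama5 was measured. Lama5 encodes the alpha 5 chain, widespread in epithelial and vascular basement membranes, and read 93.2 in Fut8-/- and 293 in Fut8+/+ at 1427009_at. Its second bright probe set (1427010_s_at) read 62.7 in Fut8-/- and 212 in Fut8+/+, 2.90-fold lower, so both placed the gene at least 2-fold lower. A further Lama5 probe set (1459614_at) was under the floor, at 1.11 and 1.65. Lama2, whose chain is typical of muscle and peripheral nerve, read 3.12 in Fut8-/- and 2.93 in Fut8+/+. Lama4, whose chain is typical of vessels and mesenchymal tissue, read at most 1.88 in Fut8-/- and 0.605 in Fut8+/+. Neither gene has a ratio here, since signals under the floor have no order.

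The beta chains were both measured, and Lamb1 differed more than Lamb2. Lamb1 encodes the beta 1 chain of most embryonic laminins. Its brightest probe set (1424114_s_at) read 355 in Fut8-/- and 1218 in Fut8+/+, with a log2 ratio of -1.56. The probe sets 1424113_at and 1451241_at gave 97.2 and 47.0 in Fut8-/-, against 397 and 115.0 in Fut8+/+, or 3.51-fold and 2.10-fold lower. The dimmest one (1446180_at) read 1.53 in Fut8-/- and 12.8 in Fut8+/+, just over the floor. All 3 Lamb1 probe sets that cleared the floor on each array were thus at least 2-fold lower. Lamb2 encodes the beta 2 chain of the neuromuscular junction and the kidney filter, and its single probe set (1416513_at) read 166 in Fut8-/- and 297 in Fut8+/+, 1.54-fold lower.

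Lamc1 encodes the gamma 1 chain, which is part of most laminins and holds the nidogen-binding site. Its brighter probe set (1423885_at) read 171 in Fut8-/- and 397 in Fut8+/+, a 1.995-fold lower level that just missed the 2-fold limit (log2 ratio -0.996). The dim Lamc1 probe set (1423886_at) went the other way, with 23.4 in Fut8-/- and 4.86 in Fut8+/+, at least 2.20-fold higher with the Fut8+/+ array at the floor. Neither of these signals reached the measured limit. The direction for Lamc1 therefore rests on 1 probe set and is contradicted by the other.

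The proteoglycans also differed from each other. Agrn encodes agrin, which gathers acetylcholine receptors at the neuromuscular junction and binds dystroglycan elsewhere, and read 195 in Fut8-/- and 709 in Fut8+/+ at 1426670_at. Its other probe set (1443980_at) was under the floor on both arrays, at 0.672 and 1.13. Hspg2 encodes perlecan, a large core protein that binds laminin, nidogen and growth factors. Its probe sets disagreed in size: 1418669_at read 244 in Fut8-/- and 341 in Fut8+/+, 1.199-fold lower, and 1418670_s_at read 184 in Fut8-/- and 447 in Fut8+/+, 2.08-fold lower. The choice of the first follows from its higher mean log2 signal, so Hspg2 was at least 2-fold lower by one probe set and not by the other.

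Counted by probe set, 12 of the 21 were above the floor on both arrays, all 12 with a ratio below 0 and 8 of them at least 2-fold lower. Among all 20661 probe sets of single genes that cleared it on both, 49.9% had a ratio below 0 and 6.1% were at least 2-fold lower. Of the other 9 member probe sets, 6 were at the floor on both arrays, 2 on the Fut8-/- array only and 1 on the Fut8+/+ array only. The log2 ratios of probe sets of 1 gene had an SD of 0.40 around their gene, over 5389 genes (1.32-fold). The log2 ratios of Hspg2, Lamb2 and Nid2 lay within 2 such SDs of 0. This spread is between probe sets on the same 2 arrays and says nothing of the error between cultures.

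Because genes shifted together along some chromosomes, each gene was set beside the nearest measured genes, 5 on each side, in the gene order of the GRCm38.p6 table. Nid1 lies on chromosome 13, where the median log2 ratio of 377 measured genes was 0.56. The 10 neighbours of Nid1 had a median log2 ratio of 0.42 and ranged from -0.48 to 0.78, all above that of Nid1. Its nearest measured neighbours are Gpr137b, with a signal of 193 in Fut8-/- and 270 in Fut8+/+ (log2 ratio -0.26), and the lysosomal trafficking regulator gene Lyst, with 106 and 93.7 (log2 ratio 0.40).

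The lower level of Lama5 likewise stood apart from its surroundings on chromosome 2, where the 10 neighbours had a median log2 ratio of 0.23 and the lowest was -0.15. Osbpl2 and Cables2, on either side of Lama5, had log2 ratios of 0.14 and 0.24. Lamb1 lies on chromosome 12, whose 361 measured genes had a median of -0.38. The neighbours of Lamb1 had a median of -0.38 too, and 1 of them, the adjacent Fam110c, was at least 2-fold lower (-1.69). Dld, the dihydrolipoamide dehydrogenase gene on the other side, had a log2 ratio of -0.42.

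Agrn and Hspg2 share chromosome 4, with a median of -0.22 over 622 measured genes. The 9 neighbours of Agrn had a median of -0.40, and the adjacent AW011738 was at least 6.23-fold lower (signals of 10.4 in Fut8-/- and 76.9 in Fut8+/+). On the other side 9430015G10Rik had a log2 ratio of -0.13. The Hspg2 log2 ratio of -0.26 lay close to the chromosome median and among its neighbours, which ranged from -0.90 to 1.59. Lamb2 had neighbours with a median of 0.25, all above its own log2 ratio. Nid2 had neighbours with a median of 0.03, 1 of which, Gng2 (-0.999), was lower than Nid2. Lamc1 had neighbours with a median of -0.10, and 2 of the 10, Nmnat2 (-2.04, a bound) and Mr1 (-1.34), were lower than Lamc1.

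**Figure D3:**
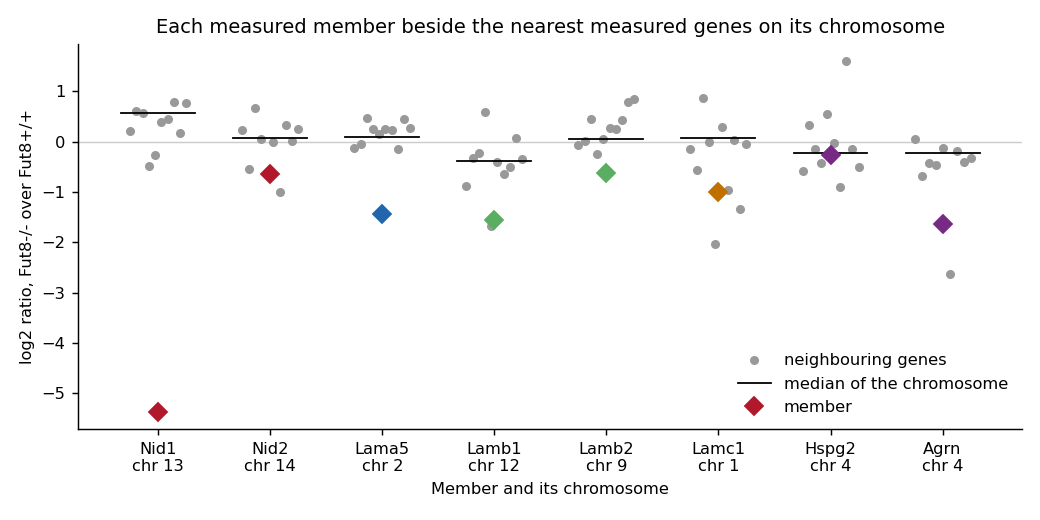
Log2 ratio of Fut8-/- over Fut8+/+ for each measured member (diamonds), its nearest measured genes in chromosome order (grey points) and all measured genes of its chromosome (black line, median). Nid1, Lama5 and Lamb2 lie under every neighbour, Lamb1, Agrn and Nid2 each have 1 lower neighbour, Lamc1 has 2, and Hspg2 lies at -0.26 among neighbours from -0.90 to 1.59.

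The stretches of 250 bases before the transcription start of the 4 genes at least 2-fold lower are shown because these members differed in the same direction. They are RefSeq sequences of build GRCm38.p6, each on the strand of its gene, at chr13:13437352-13437601 (+) for Nid1, chr12:31265043-31265292 (+) for Lamb1, chr2:180225860-180226109 (-) for Lama5 and chr4:156197489-156197738 (-) for the outermost of 2 listed Agrn starts. Capitals mark the GC box letters GGGCGG, or CCGCCC on the other strand, the core of the site read by Sp family factors; overlapping matches were each counted.
Nid1: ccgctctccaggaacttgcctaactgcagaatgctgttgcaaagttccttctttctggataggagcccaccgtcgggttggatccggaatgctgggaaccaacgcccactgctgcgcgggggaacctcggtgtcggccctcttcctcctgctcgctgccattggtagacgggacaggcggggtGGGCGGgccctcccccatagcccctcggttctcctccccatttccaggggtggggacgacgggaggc
Lamb1: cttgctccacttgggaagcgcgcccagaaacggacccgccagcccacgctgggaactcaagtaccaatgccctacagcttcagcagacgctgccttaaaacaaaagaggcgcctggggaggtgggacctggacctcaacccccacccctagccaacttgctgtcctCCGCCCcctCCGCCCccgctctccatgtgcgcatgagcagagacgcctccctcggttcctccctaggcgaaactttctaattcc
Lama5: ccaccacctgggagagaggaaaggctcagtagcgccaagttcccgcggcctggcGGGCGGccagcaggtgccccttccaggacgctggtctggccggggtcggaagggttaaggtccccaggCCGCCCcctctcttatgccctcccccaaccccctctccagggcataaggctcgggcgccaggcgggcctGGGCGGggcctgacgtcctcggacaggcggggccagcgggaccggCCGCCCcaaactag
Agrn: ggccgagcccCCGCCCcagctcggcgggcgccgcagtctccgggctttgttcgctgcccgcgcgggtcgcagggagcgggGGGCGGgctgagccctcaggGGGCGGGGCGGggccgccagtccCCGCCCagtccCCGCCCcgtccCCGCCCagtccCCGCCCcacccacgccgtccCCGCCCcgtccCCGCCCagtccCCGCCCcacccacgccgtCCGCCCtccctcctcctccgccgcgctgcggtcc

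Of the 10 genes 7 had an entry, and Nid2, Lama4 and Lamc1 had none. The GC box letters occurred 1 time before Nid1, 2 times before Lamb1, 4 times before Lama5 and 12 times before the outermost Agrn start. Hspg2, which lay within 2-fold, had 5 matches, while Lamb2 and the unmeasured Lama2 had 0. Of 32851 such windows in the mouse table, 32.7% held at least 1 match. The letters CCAAT or ATTGG were found 1 time each before Nid1 and Lamb1 and in 33.8% of all windows. TATAAA or TTTATA was found before none of the 7 genes, against 12.4% of all windows. Content of G and C was 64.4% before Nid1, 62% before Lamb1, 72.4% before Lama5 and 83.6% before Agrn, with a median of 52.4% over all windows. The windows of the mouse table were not limited to genes measured on these arrays. A match of letters is a description, and absent letters say nothing about a factor.

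The other measured genes of the basement membrane lay mostly within 2-fold. Of 33 listed, 30 had a probe set and 15 were measured, 3 of them lower by 2-fold or more, 1 higher by as much and 11 between (median log2 ratio -0.58). Among all measured genes 8.46% were lower and 6.12% higher by that much, with a median log2 ratio of 0.00082. The major collagen IV chains Col4a1 and Col4a2, which share a promoter region, were 1.62-fold and 1.78-fold lower, with signals of 1142 and 624 in Fut8-/- and 2150 and 1297 in Fut8+/+. The other Col4a1 probe set gave a log2 ratio of -1.04, more than 2-fold lower. Col4a5 had a log2 ratio of -0.20, whereas its neighbour on the X chromosome, Col4a6, was at least 9.77-fold lower, at 10.4 in Fut8-/- and 121 in Fut8+/+. The calcium-binding matrix gene Smoc1 was at least 5.90-fold lower.

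The laminin- and nidogen-binding fibulin gene Fbln2 was 5.06-fold lower, with 322 in Fut8-/- and 1897 in Fut8+/+; its second probe set gave a log2 ratio of -0.36. The single gene at least 2-fold higher was Col18a1, whose product is a heparan sulfate proteoglycan of the basement membrane. It read 384 in Fut8-/- and 111 in Fut8+/+ (4.02-fold), and its other probe set gave a log2 ratio of 1.95. Peroxidasin (Pxdn), which cross-links collagen IV, was 1.84-fold lower, and Fbln1 had a log2 ratio of 0.89. The remaining laminin chains were dim: Lamb3 was the 1 measured, at 117 in Fut8-/- and 119 in Fut8+/+, and Lama1 was at the floor on both arrays.

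**Figure D4:**
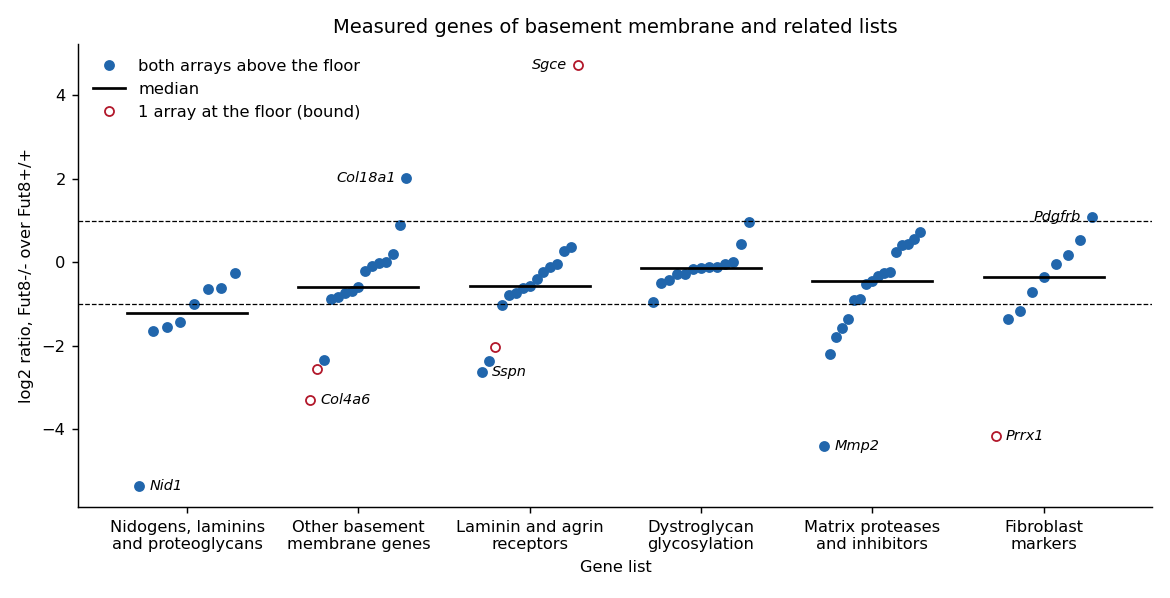
Log2 ratio of Fut8-/- over Fut8+/+ for every measured gene of 6 lists, with the list median (black line) and 2-fold limits (dashed). Open circles have 1 array at the floor and are bounds. The members reach down to Nid1 at -5.37, the other basement membrane genes run from Col4a6 (bound, -3.29) to Col18a1 (2.01), and no dystroglycan glycosylation gene passes 2-fold.

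Receptors of these proteins were mixed. Of 24 genes for laminin and agrin receptors and their partners 15 were measured, 4 of them lower by 2-fold or more and 1 higher by as much (median log2 ratio -0.57). Of all measured genes, 8.46% were lower and 6.12% higher by that much. Sarcospan (Sspn), a partner of dystroglycan, was 6.22-fold lower with 53.5 in Fut8-/- and 387 in Fut8+/+. The laminin-binding integrin chain Itga6 was 5.13-fold lower with 38.2 in Fut8-/- and 228 in Fut8+/+, and the laminin alpha 4 receptor gene Mcam at least 4.11-fold lower. Syndecan 2 (Sdc2) was 2.03-fold lower at its brightest probe set, but its probe sets differed in sign.

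Epsilon-sarcoglycan (Sgce) was at least 26.4-fold higher, at 281 in Fut8-/- and 5.85 in Fut8+/+, although its second probe set gave a log2 ratio of 0.20. Dystroglycan (Dag1) and the common integrin chain Itgb1 lay within 2-fold, with log2 ratios of 0.37 and -0.63. Of the agrin receptor genes, Musk was at the floor on both arrays and Lrp4 under the measured limit (16.3 in Fut8-/- and 22.5 in Fut8+/+). The enzymes that build the laminin- and agrin-binding sugar of dystroglycan all lay within 2-fold: 13 of 18 were measured, with a median log2 ratio of -0.13. Pomgnt2 had the highest of their log2 ratios, at 0.97, and Dpm3 the lowest, at -0.94.

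Among enzymes that cut basement membrane proteins and their inhibitors, 17 of 28 were measured, 5 of them lower by 2-fold or more and 0 higher by as much (median log2 ratio -0.44). The shares of all measured genes were 8.46% lower and 6.12% higher. The collagen IV-cutting gelatinase gene Mmp2 was 21.0-fold lower, with 32.7 in Fut8-/- and 799 in Fut8+/+, and both of its probe sets showed it. The serine protease gene Htra1 was 4.62-fold lower, the urokinase gene Plau 3.43-fold, heparanase (Hpse) 2.98-fold and the plasminogen activator gene Plat 2.56-fold, the last with probe sets of both signs. The second Plau probe set gave a log2 ratio of -0.36. Prss12, which encodes neurotrypsin, the protease known to cut agrin, had the highest log2 ratio among the measured genes of the list, at 0.71.

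Cell type markers had no common direction, some lists lower beside the members and others mixed or higher, and their part in the lower levels was not tested. In a culture, fewer cells of a type and less RNA per cell cannot be told apart. Of the 9 measured fibroblast markers, 3 were lower by 2-fold or more and 1 higher by as much (median log2 ratio -0.36). Beside this and the marker lists below stand the shares of all measured genes, 8.46% lower and 6.12% higher. The summed signal over all 13 fibroblast markers listed was 33372 in Fut8-/- and 35967 in Fut8+/+. The homeobox gene Prrx1 was at least 17.9-fold lower, the collagen gene Col1a1 2.58-fold and Pdgfra 2.26-fold lower, whereas Pdgfrb was 2.13-fold higher. Each of the 3 lower genes also had a probe set within 2-fold, at log2 ratios of -0.83, -0.46 and -0.51. Dcn was at the floor on both arrays. All sums are of signals as deposited. The factor of 1.16 that the ratios apply to Fut8-/- would reverse the order of the fibroblast sums. Vim, Col1a2 and S100a4 make up most of each fibroblast sum.

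Extraembryonic endoderm, which in mouse embryos lays down a thick laminin-rich membrane, had 3 of 8 markers measured. Afp read 67.3 in Fut8-/- and 942 in Fut8+/+ (12.0-fold lower), Gata6 3.08 and 92.0 (at least 7.45-fold lower), and Dab2 1059 and 358 (3.44-fold higher), while Sox7 and Ttr were at the floor on both arrays. Summed over the 8 markers, the signal was 1188 in Fut8-/- and 1473 in Fut8+/+. The log2 ratios of the Afp probe sets ran from -3.84 to -0.44, and those of the Dab2 probe sets from 0.66 to 2.33.

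Smooth muscle and pericyte markers were lower for 3 of 5 measured among 10, namely Tagln (6.69-fold), Des (at least 4.53-fold) and Cspg4 (3.57-fold). The second Des probe set gave a log2 ratio of -0.56. The summed signal of the list was 257 in Fut8-/- and 745 in Fut8+/+, and Myh11, Cnn1 and Rgs5 were at the floor on both arrays. Schwann and neural markers were lower for 2 of 3 measured among 7 on the array, Sox2 (at least 9.60-fold) and Nes (4.77-fold), with sums of 182 and 741 and Sox10 at the floor on both arrays. Epithelial markers moved both ways, with Krt19 (at least 14.6-fold) and Dsp (at least 6.70-fold) higher and Epcam (2.43-fold) and Grhl2 (2.05-fold, probe sets of both signs) lower; their sums were 334 and 165, and Cdh1, Krt18, Cldn4, Cldn7 and Esrp1 were at the floor.

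Endothelial markers, of a cell type that makes much laminin and perlecan, were near or at the floor: Pecam1, Tie1, Emcn, Vwf and Erg were at it on both arrays, and Egfl7 was the 1 of 12 measured (log2 ratio -0.55), with sums of 211 in Fut8-/- and 312 in Fut8+/+. Among 6 macrophage markers 1, Csf1r, was measured (log2 ratio -0.24; sums 68.3 and 109), with Ptprc, Adgre1 and Aif1 at the floor. Skeletal muscle gave 2 measured of 7, Ckm (2.27-fold higher, probe sets of both signs) and Acta1 (log2 ratio 0.54), with sums of 114 and 94.6 and Myog, Pax7, Myh3 and Myf5 at the floor. Of 5 adipocyte markers on the array Pparg was the 1 measured (2.60-fold lower; sums 47.5 and 86.7), with Adipoq, Cebpa and Lpl at the floor.

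**Figure D5:**
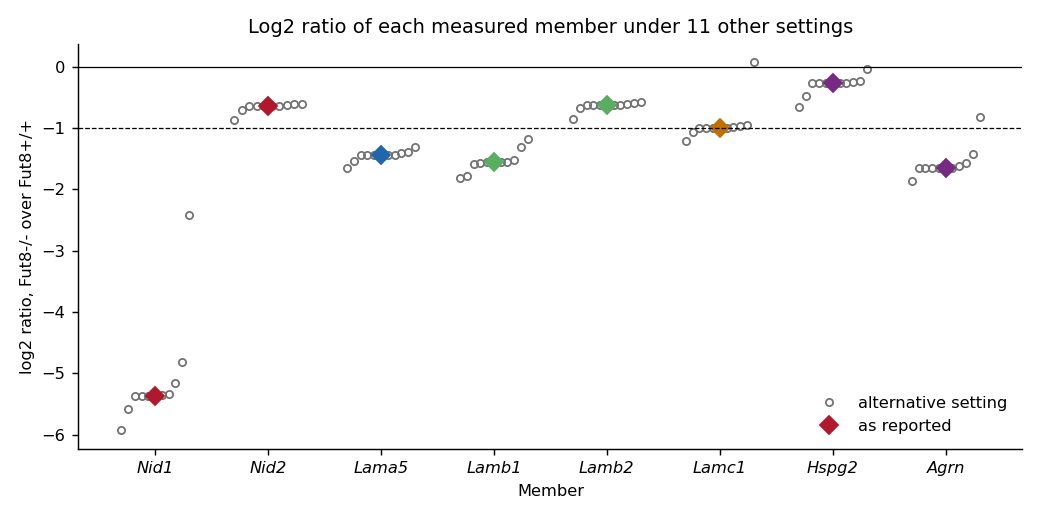
Log2 ratio of Fut8-/- over Fut8+/+ of each measured member as reported (diamonds) and under the other settings that give it a value (open circles, 11 per gene and 10 for Nid2), with the 2-fold limit dashed. Nid1, Lama5 and Lamb1 stay at least 2-fold lower under all 11, Agrn under 10, and Lamc1 spans from -1.22 to 0.07. Changes of filter and the lower floor cannot move these ratios.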

How the data were processed

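The authors deposited 1 table of signal intensity values on a linear scale, 1 per probe set and array, made with GCOS, the Affymetrix scanner software, per the submitters' processing notes. Its version, scaling target, detection calls and genome build are not stated in the labels or the file, so centring and scale beyond linearity stay unknown. Median signals were 16.9 for Fut8-/- and 20.5 for Fut8+/+. Genotypes came from the labels.

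Of 45101 probe sets 64 controls were left out; 34945 had 1 gene symbol, 932 several and 9160 none. Only those with 1 symbol named genes; 34741 matched the GRCm38.p6 gene table by identifier, and 0 symbols changed. Ratios were centred and floored as described above, with floor and measured limit at the 40th and 60th percentiles of both arrays pooled. A gene with several probe sets was represented by that of highest mean log2 signal. The steps were tested on simulated data with planted changes and noise drawn for each probe set. The simulation held no variation between cultures and no shifts along chromosomes, so it cannot speak to those errors. Precision is limited by having 1 array per genotype.

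The members and lists were chosen with earlier results of these data known. Named genes were the members, Fut8, up to 6 measured genes of each list by size of ratio, markers at the floor, neighbours of members and the 3 genes nearest to Nid1; Vim, Col1a2, Xist, Eif2s3y and list genes of smaller ratio were chosen after their values were seen. Alternatives covered centring, normalization, floor, choice of probe set and filter. Analyses used Python 3.11.15, numpy 2.4.6, pandas 2.3.3 and statsmodels 0.14.6.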

Additional observations from a re-analysis of the deposited data

How the results depend on the processing

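No paired analysis was possible because each genotype has 1 array. Under the 11 alternatives the count of members at least 2-fold lower ran from 3 to 5 and that of members at least 2-fold higher stayed at 0. The 5 came without centring (background 11.8%) and with each chromosome centred (8.19%), where Lamc1 passed the limit; the 3 came with the median of all probe sets of a gene, which counts probe sets at the floor as no change (background 6.82%). That setting also gave the median log2 ratio of members as -0.74, and single ratios of -2.41 for Nid1, -0.82 for Agrn and 0.07 for Lamc1. Of 87 single-gene ratios under an alternative, 82 moved by less than the probe set SD. The others were those 3, and Nid1 at -5.93 with each chromosome centred and -4.82 with 16 added to each signal and no floor. Part of the 82 were fixed in advance. A change of filter or a lower floor cannot move the ratio of a gene above the floor on both arrays. Nid2 has no probe set ending in a bare _at and so no value there. Without the filter the members' median was -0.82 over all 10, the unmeasured at 0. Signals under the floor limit what can be said of Lama2 and Lama4.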

Other observations

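Several dim basement membrane genes were above the floor on the Fut8-/- array only, the opposite side from the members. They were picked after their values were seen, and none reached the measured limit. The share of all genes that did so was not counted. Npnt of the same list went the other way, with 9.82 in Fut8-/-, at the floor, and 19.3 in Fut8+/+. Lamc3, a laminin gamma chain, read 22.2 in Fut8-/- and 4.75 in Fut8+/+, although its second probe set gave a log2 ratio of -0.43. Fras1, an epithelial anchoring protein gene, read 29.1 and 7.48. Col15a1, a proteoglycan collagen close to Col18a1, read 14.9 in Fut8-/- and 0.942 in Fut8+/+, Lama3 16.8 and 9.69, and Col4a3 12.8 and 9.55. On the deposited scale of the Fut8-/- array the floor is 10.6, so these 3 lie near it. The dim Lamc1 probe set at 23.4 and 4.86 was of the same kind.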
